A study of Mus musculus with 54 samples.

Results

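Monocyte-primed progenitors were chosen by the unique molecular identifier (UMI) counts of 9 genes in single unsorted bone marrow progenitors of the mouse. A cell entered the set when it held at least 500 UMIs, at least 4 UMIs summed over the monocyte-lineage genes Irf8, Csf1r, Klf4, F13a1 and Ly86, at least 5 UMIs of Mpo, and at most 4 UMIs summed over the MHC class II genes Cd74, H2-Aa and H2-Eb1. Of 2732 unsorted cells, 413 (15.1%) met these conditions. They were set against the 2319 other unsorted cells and against 2 narrower sets drawn from those. All cells were profiled by MARS-seq, which tags the 3' end of each mRNA molecule with a well barcode and a UMI, and which amplifies the wells of a pool together.

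The monocyte-primed and the other unsorted cells came from the same 16 amplification pools of Lin- cKit+ Sca1- bone marrow cells of wild-type C57BL/6 mice aged 6 to 8 weeks. The same rule was then applied to sorted gates and to a Cebpa knockout. The gates were taken inside the Lin- cKit+ Sca1- CD34+ FcgR(low) fraction, the common myeloid progenitor (CMP) window. They were CD41+ cells (2 pools) and Flt3+ Csf1r+ cells (2 pools) of wild-type mice, and GFP+ MHCII+ cells of Irf8-GFP reporter mice (4 pools), all C57BL/6 and 6 to 8 weeks old. The Cebpa KO (8 pools) and the Cebpa control (4 pools) were Lin- cKit+ Sca1- cells of mice of the same age, all treated with poly(I:C). Every KO pool is labelled Cebpa(flox/flox)Mx1-Cre. Control replicates 3 and 4 carry that same strain label, and control replicates 5 and 6 are labelled Cebpa(flox/flox) without the Cre. Mx1-Cre is switched on by interferon, which poly(I:C) induces, and it acts in blood cells and in other tissues alike. The authors' table gives 1 mouse identifier per group, so all p-values below measure the spread between amplification pools, which may be technical.

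Monocytes and neutrophils arise from shared granulocyte-monocyte progenitors. Irf8 and Klf4 encode transcription factors needed for monocyte formation, and Csf1r encodes the receptor for macrophage colony-stimulating factor. F13a1 encodes a coagulation factor subunit made by monocytes and macrophages, and Ly86 encodes MD-1, a partner of a Toll-like-receptor relative. Mpo, Elane, Prtn3 and Ctsg encode proteins stored in azurophil (primary) granules, which early monocyte and neutrophil progenitors both make. Cebpa starts the granulocyte-monocyte programme, whereas Cebpe and Gfi1 act in the neutrophil branch, Gfi1 as a repressor. Spi1, the gene of PU.1, was not analysed here.

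The unsorted pools held between 482844 and 854479 UMIs each, of which the monocyte-primed cells contributed 67952 to 140180. Of 3040 unsorted wells that received a cell, 89.9% reached 500 UMIs. The 32 wells without a cell held 12 to 75 UMIs, with at most 2 UMIs of Mpo and at most 1 of the 5 monocyte genes together, and 0 of them met the rule. The wells were labelled as holding 1 cell each, no doublet caller was run, and 0 well identifiers occurred in more than 1 pool. In unsorted replicates 5, 6, 9, 10, 13 and 14, which are plates 4, 6 and 8, the genes Ly6c2, Nkg7 and Fcgr3 stood low in the monocyte-primed and in the other cells alike, and values of these genes without those pools stand beside their results. Across the series, the group label and the authors' table named different groups for 18 of 54 pools. Those pools enter no comparison below except where all pools are grouped by label or by table as alternatives. All 16 unsorted pools carried the same group in both sources.

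The 5 genes of the monocyte condition chose the cells, so their values are a description only. Irf8 was found in 392 of the 413 cells (94.9%), with 1533 UMIs in all. Csf1r had 559 UMIs in 298 cells, F13a1 719 UMIs in 287 cells, Ly86 554 UMIs in 285 cells, and Klf4 115 UMIs in 86 cells. As CPM, the UMIs of a gene scaled to a common total over the cells of a pool, Irf8 in monocyte-primed cells had a lowest value of 692, a median of 991 and a highest of 1257, against 34.1, 74.7 and 108 CPM in the other cells. Csf1r had 251, 350 and 471 CPM at these points in monocyte-primed cells, against 10.1, 24.1 and 43.6 CPM in the other cells. Monocyte-primed cells rarely rested on 1 gene of the set. Of the 413 cells, 6 held UMIs of 1 of the 5 genes, 78 of 2, 164 of 3, 131 of 4 and 34 of all 5. Irf8 and Csf1r were found together in 282 cells (68.3%), and 21 cells had no Irf8 UMI. Mpo averaged 54.1 UMIs per monocyte-primed cell. In 401 cells no UMI of the 3 class II genes was found, and Cd74 had 11 UMIs over the whole set.

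The monocyte sum had no gap at the threshold. It had a median of 7 UMIs in monocyte-primed cells, with quartiles of 5 and 10 and a range of 4 to 29. Just inside, 66 cells had a sum of 4 and 54 cells a sum of 5. Just outside, with the other conditions met, 91 cells had a sum of 3 and 111 a sum of 2. The 91 cells with a sum of 3 had a median surface FcgR intensity of 1270 and a mean of 75.5 UMIs over Elane, Prtn3 and Ctsg, beside 1344 and 81.4 UMIs in the 66 cells with a sum of 4. Another 11 cells failed on Mpo alone and 5 on class II alone. The sum also followed depth within the set (Spearman's rho 0.443 with total UMIs over 413 cells, which share their libraries). Median depth was 3639 UMIs in monocyte-primed cells, against 2948 in the other cells.

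**Figure D1:**
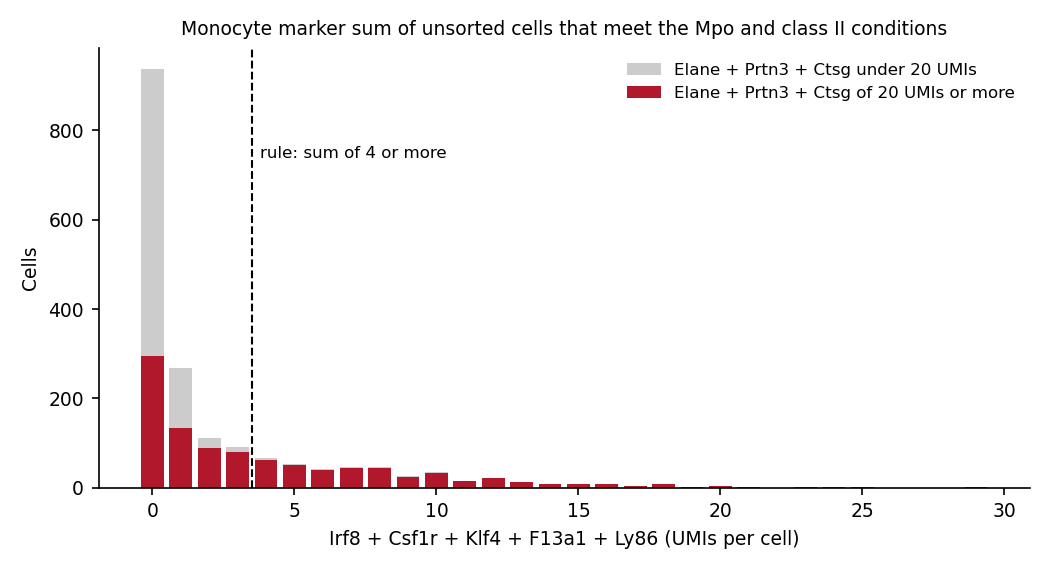
Number of unsorted cells (y axis) by the summed UMIs of Irf8, Csf1r, Klf4, F13a1 and Ly86 (x axis), for the 1821 cells that meet the Mpo and class II conditions. The red part of each bar holds cells with at least 20 UMIs of Elane, Prtn3 and Ctsg together, which are 31.3% of cells with a sum of 0, 81.1% of cells with a sum of 2 and 95.5% of cells with a sum of 4.

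By the genes that chose them the cells met the label in the sense of early monocyte priming, while Nr4a1, Ccr2, Cx3cr1 and Cd14 were close to absent. Ly6c2, a surface antigen of inflammatory monocytes, was not, with 3655 UMIs in 347 of the 413 cells (84.0%), against 29.5% of the other cells. Cells rich in granule transcripts held Ly6c2 as well, as given below. Nr4a1, which encodes a nuclear receptor of mature monocytes, had 0 UMIs in 413 cells, and 0 of 413 cells allows a share of cells with a UMI of up to 0.726%. Ccr2, the chemokine receptor of inflammatory monocytes, had 16 UMIs, Cx3cr1 had 20 and Cd14 had 11. Their pool means of 9.46, 13.0 and 6.65 CPM were low, but above the 1.60, 0.876 and 2.60 CPM of the other cells. Among neutrophil secondary-granule genes, Ltf and Camp had 0 UMIs each and Ngp had 1, while Lcn2 had 52 and Chi3l3 had 19. The summed level of that 12-gene list had a pool median of 39.9 CPM in monocyte-primed cells, against 20.2 CPM in the other cells. Of 19 listed dendritic genes, 16 had UMIs in unsorted cells. In monocyte-primed cells Siglech, Xcr1, Batf3, Ciita, Cd7 and H2-Eb1 had 0 UMIs, whereas Cst3 had 2620, H2-DMa 390, Flt3 79 and Tcf4 71. The summed dendritic list ranged over 1653 to 2575 CPM by pool in monocyte-primed cells, against 815 to 1636 CPM in the other cells, and its part in the results was not tested. Among markers of other lineages, the platelet gene Pf4 had 1 UMI and the mast cell gene Cpa3 had 0. Mcpt8, a basophil protease, had 39 UMIs in 21 cells, and 1 of those cells held 18 of them. The summed basophil and mast cell list ranged over 77.0 to 672 CPM by pool in monocyte-primed cells, against 117 to 915 CPM in the other cells, and all 9 of its genes had UMIs in the other cells. The part of these genes in the results was not tested either.

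Against all other unsorted cells, the monocyte-primed cells had higher levels of monocyte effector genes and of granule genes, and lower levels of erythroid genes. The other cells are a mixture that includes erythroid, megakaryocytic and early progenitors. Of 4794 genes tested outside the 9 rule genes, 1135 were higher in monocyte-primed cells, 23.7% of those tested, and 1220 were lower, 25.4% (edgeR quasi-likelihood test with pool as a block, Benjamini-Hochberg adjusted p under 0.05). Together 49.1% of tested genes passed, and the counts of each list are read against these shares. These genes were counted in the same cells as the rule genes, so they are not an independent choice of cells. All tested genes had a median log2 fold change of -0.04. Of 35 listed monocyte effector genes, 33 had UMIs, 15 passed the filter on low counts, and all 15 of these were higher, with a median log2 fold change of 2.57. Of 13 tested erythroid genes, all 13 were lower, with a median of -3.96.

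Ms4a6c, a membrane protein of the monocyte lineage, had a lowest, median and highest pool value of 66.1, 143 and 414 CPM in monocyte-primed cells, against 5.41, 14.5 and 52.5 CPM in the other cells. Its log2 fold change was 3.47 ± 0.16 (SE, adjusted p = 2.08e-37 by edgeR's quasi-likelihood test), and it was higher in 16 of 16 pools. The lysosomal protease gene Ctsh had 92.7, 155 and 246 CPM in monocyte-primed cells, against 5.35, 15.6 and 31.0 CPM in the other cells. Neither of these genes had overlapping pool ranges. Emb, which encodes the cell adhesion protein embigin, had 606, 797 and 1067 CPM in monocyte-primed cells, against 77.8, 107 and 196 CPM in the other cells. Klf1, the erythroid transcription factor, had 0, 43.0 and 89.4 CPM in monocyte-primed cells, against 547, 825 and 873 CPM in the other cells, with a log2 fold change of -4.11 ± 0.12. Its pools did not overlap either. Erythroid genes were nonetheless not absent: their summed level over 15 genes had a pool median of 938 CPM in monocyte-primed cells, against 14006 CPM in the other cells.

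A narrower comparison took only cells under the same Mpo and class II conditions. The Mpo-matched set held 1206 such unsorted cells with a monocyte sum of 0 or 1. The sets share a floor of 5 Mpo UMIs, not an equal level: Mpo, a rule gene with no test, had a median of 51 UMIs per monocyte-primed cell and a pool mean of 13978 CPM, against a median of 11 UMIs and 6934 CPM in Mpo-matched cells. Median depth was 3639 UMIs in monocyte-primed cells and 3721 in these cells. Of 3593 genes tested, 898 were higher in monocyte-primed cells (25.0%) and 927 lower (25.8%), together 50.8%. All 15 tested monocyte effector genes were higher and all 12 tested erythroid genes were lower, with the same limit from the filter. With library totals in place of TMM scaling, the split became 761 higher and 1186 lower. Ctss, a lysosomal cysteine protease, had 59.6, 103.5 and 210 CPM by pool in monocyte-primed cells, against 0, 4.24 and 20.1 CPM in Mpo-matched cells (log2 fold change 4.33 ± 0.25, adjusted p = 2.33e-26 by edgeR). No pool of monocyte-primed cells was as low as the highest Mpo-matched pool. Pld4, a phospholipase D family member, and Cfp, the complement factor properdin, had log2 fold changes of 4.19 and 3.35. Slpi, a secreted inhibitor of neutrophil elastase, had a log2 fold change of 3.22 and Tifab, an adaptor-related protein, one of 3.23. Rassf4, Serpinf1, Rasa4, Emb and Gng2 had log2 fold changes between 3.00 and 3.58. Among the genes named as lower were Myo1d and the erythroid membrane gene Ermap (both -4.84), the metallothionein Mt2 (-4.60), the ganglioside synthase gene St3gal5 (-4.50), Sept8 (-4.44), Epor, the erythropoietin receptor (-4.35), Lmna and Atp1b2 (both -4.27), and the globin Hba-a2 (-4.26). Hba-a2 shares reads with a near-identical copy and is uncertain.

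The sets under the Mpo floor also differed in granule genes. The sum of Elane, Prtn3 and Ctsg UMIs had a median of 80 per monocyte-primed cell with quartiles of 47 and 112, against a median of 8 with quartiles of 4 and 62 in Mpo-matched cells. At least 20 such UMIs were found in 95.6% of monocyte-primed cells, against 35.6% of Mpo-matched cells. The erythroid list had a pool median of 938 CPM in monocyte-primed cells, against 13560 CPM in Mpo-matched cells, so cells with 5 or more Mpo UMIs included many erythroid ones. A further comparison therefore added a floor of 20 granule UMIs on both sides, which left 395 monocyte-primed cells and 429 comparison cells, and this floor was chosen after seeing the data. These sets are called granule-matched below, which means this shared floor and not equal levels. Mpo, Elane, Prtn3 and Ctsg are rule genes there and have no test.

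Granule-matched comparison cells had more of the azurophil granule transcripts than monocyte-primed cells. Elane, neutrophil elastase, had 4559, 6448 and 7737 CPM at the lowest, median and highest pool of monocyte-primed cells, against 10100, 13460 and 18120 CPM in granule-matched comparison cells. Prtn3, proteinase 3, averaged 11135 ± 1098 CPM in monocyte-primed cells and 15378 ± 1183 CPM in comparison cells (SD, n = 16 pools). Ctsg, cathepsin G, averaged 4909 ± 443 CPM in monocyte-primed cells and 8216 ± 654 CPM in comparison cells. Mpo averaged 14231 ± 1424 CPM in monocyte-primed cells and 21063 ± 1798 CPM in comparison cells. No monocyte-primed pool reached the lowest comparison pool for Elane, Prtn3, Ctsg or Mpo. Both sets had passed a floor on these genes, and median depth was 3693 UMIs in monocyte-primed cells, against 2770 in comparison cells.

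The neutrophil-branch regulators Cebpe and Gfi1 were lower in monocyte-primed cells than in granule-matched comparison cells, while Cebpa did not pass the test. Of 1944 genes tested, 200 were higher in monocyte-primed cells (10.3%) and 218 lower (11.2%), together 21.5%. With library totals in place of TMM scaling, the split was 296 higher and 167 lower. Cebpe, a transcription factor of terminal granulocyte development, had 0, 14.6 and 44.9 CPM by pool in monocyte-primed cells, against 158, 303 and 547 CPM in comparison cells. The highest monocyte-primed pool was below the lowest comparison pool. Its log2 fold change was -4.06 ± 0.19 (SE, adjusted p = 2.7e-32 by edgeR), and 0 of 16 pools were higher in monocyte-primed cells. Gfi1 had 17.4, 42.2 and 89.8 CPM in monocyte-primed cells, against 124.5, 207 and 271 CPM in comparison cells, with a log2 fold change of -2.19 ± 0.17 (adjusted p = 1.05e-19 by edgeR). Its pool ranges did not overlap. Cebpa itself had 142, 257 and 350 CPM in monocyte-primed cells, against 89.6, 261 and 384 CPM in comparison cells. Those ranges overlapped almost fully, and the difference of -0.12 ± 0.11 on the log2 scale did not pass the test (adjusted p = 0.469 by edgeR). Against all other cells, Cebpa was higher at 1.71 and Cebpe lower at -1.84, while Gfi1 did not pass at 0.21 (adjusted p = 0.397 by edgeR). The lower Gfi1 level thus holds against granule-matched comparison cells and not against all other cells.

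Of all genes tested in the granule-matched sets, 10.3% were higher and 11.2% lower. Of the 22 listed granulocyte-monocyte regulators, 8 were tested in these sets, and 1 was higher and 3 were lower. The higher one was Zeb2, a repressor of the zinc-finger homeobox family, at 161 CPM in monocyte-primed cells and 102 CPM in comparison cells, read from a row joined to another symbol and so uncertain. The third lower one was Myb, a factor of immature progenitors, at 389 CPM in monocyte-primed cells and 714 CPM in comparison cells (log2 fold change -0.95). Runx1, Stat3 and Myc did not pass, with log2 differences of 0.06, -0.12 and -0.15. Irf5, a relative of Irf8, fell below the filter and had 45.7 CPM in monocyte-primed cells and 7.67 CPM in comparison cells.

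Further genes named by the rule were lower in monocyte-primed cells, among them Pglyrp1, Cd63, Hdc and Sun2. Pglyrp1, which encodes a peptidoglycan-binding protein of neutrophil granules, had 0, 26.3 and 60.8 CPM by pool in monocyte-primed cells, against 272, 382 and 595 CPM in comparison cells (log2 fold change -3.85). Cd63, a tetraspanin of granule membranes, averaged 46.8 ± 28.4 CPM in monocyte-primed cells and 404 ± 131 CPM in comparison cells (SD, n = 16 pools). For both genes every monocyte-primed pool lay below every comparison pool. Hdc, histidine decarboxylase, averaged 88.8 CPM in monocyte-primed cells and 399 CPM in comparison cells. Sun2, a nuclear envelope protein, averaged 168 CPM in monocyte-primed cells and 588 CPM in comparison cells. Of 6 tested genes of the primary-granule list outside the rule, 4 were lower and 1 higher, with a median log2 fold change of -1.03, against 0.00 over all tested genes. Of all tested genes 11.2% were lower and 10.3% higher. The primary-granule list is wider than azurophil granule proteins, as it holds the secreted inhibitor Slpi and haptoglobin, so its counts describe the list only. Srgn, the granule proteoglycan serglycin, had 1801, 2032 and 2527 CPM in monocyte-primed cells, against 3809, 5268 and 6033 CPM in comparison cells (-1.35 ± 0.05). Gstm1 had 298, 630 and 942 CPM in monocyte-primed cells, against 1254, 1577 and 2142 CPM in comparison cells (-1.43). Neither gene overlapped between sets. Nkg7 and Ms4a3 were lower at -1.83 and -0.71. Without the 6 pools named above, Nkg7 was lower at -1.81. Slpi was the gene higher in monocyte-primed cells, at 508 CPM against 187 CPM in comparison cells (1.37), and Hp, haptoglobin, did not pass at 832 CPM in monocyte-primed cells and 874 CPM in comparison cells.

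**Figure D2:**
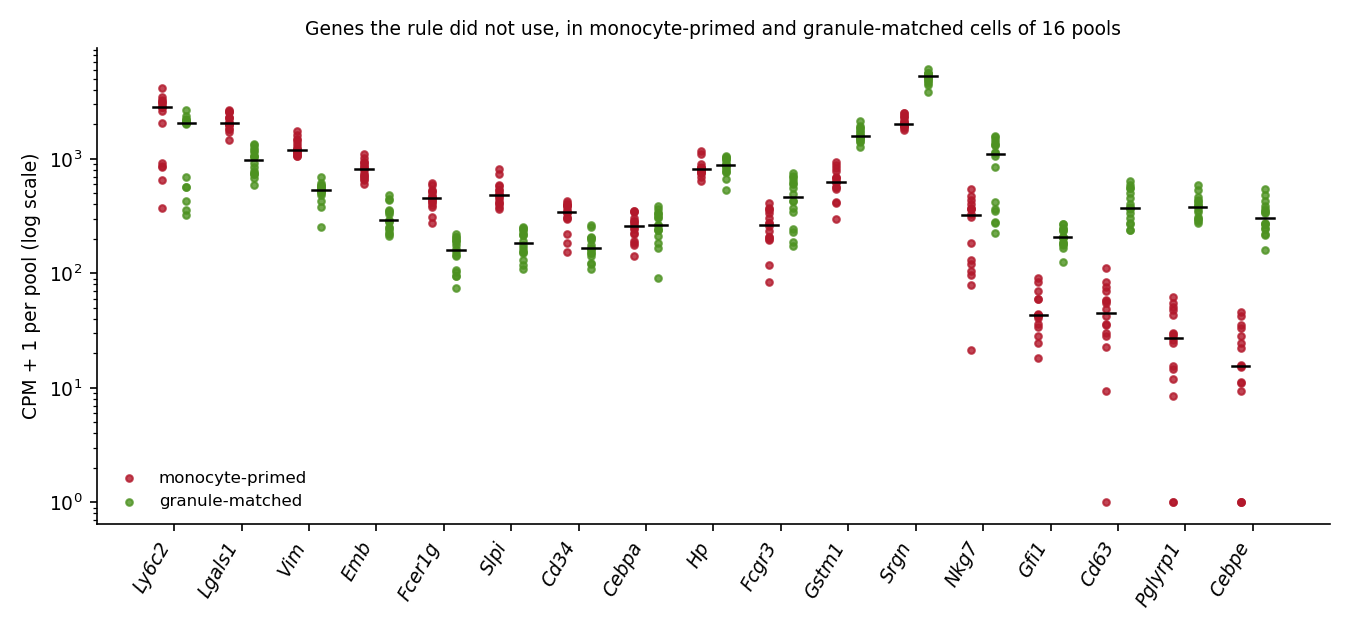
Pool values in CPM + 1 on a log axis for genes outside the rule, with granule-matched monocyte-primed cells (red) left and granule-matched comparison cells (green) right of each gene; each point is 1 of 16 pools and the black bar is the median. Cebpe, Gfi1 and Srgn do not overlap between sets, whereas the Cebpa values lie between 142 and 350 CPM in monocyte-primed cells and between 89.6 and 384 CPM in comparison cells.

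Monocyte effector genes were also higher in monocyte-primed cells than in the comparison cells with the same granule floor. Of 35 listed genes, 32 had UMIs, 12 were tested and all 12 were higher, beside 10.3% of all tested genes. Their median log2 fold change was 1.14, against 2.56 for 15 genes in the Mpo-matched comparison. The filter keeps a gene with enough counts in 1 set alone, so these counts describe the list only. Fcer1g and Tyrobp encode signalling adaptors of myeloid immune receptors. Fcer1g had 274, 453 and 609 CPM by pool in monocyte-primed cells, against 74.0, 157 and 217.5 CPM in comparison cells (1.51 ± 0.12, adjusted p = 2.05e-19 by edgeR). Its pools did not overlap. Tyrobp averaged 818 CPM in monocyte-primed cells and 404 CPM in comparison cells (0.95). Psap, the lysosomal saposin precursor, averaged 323 CPM in monocyte-primed cells and 114 CPM in comparison cells (1.45). Lgals1, galectin-1, averaged 2141 CPM in monocyte-primed cells and 964 CPM in comparison cells (1.09). The cytoskeletal gene Vim averaged 1271 CPM in monocyte-primed cells and 519 CPM in comparison cells (1.23). Selplg, the P-selectin ligand gene, was higher at 1.14. Ctss, Pld4, Ms4a6c and Ctsh fell below the filter on low counts. Ctss had 59.6, 99.5 and 203 CPM in monocyte-primed cells, against 0, 5.09 and 27.1 CPM in comparison cells, and was higher in 16 of 16 pools. Pld4 averaged 150 CPM in monocyte-primed cells and 23.4 CPM in comparison cells, and Ms4a6c averaged 186 CPM in monocyte-primed cells and 33.0 CPM in comparison cells.

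Ly6c2, a surface antigen of inflammatory monocytes, was also higher in monocyte-primed cells than in granule-matched comparison cells. It had 371, 2809 and 4124 CPM by pool in monocyte-primed cells, against 319, 2072 and 2691 CPM in granule-matched comparison cells. The pool ranges overlapped widely, although 15 of 16 pools were higher in monocyte-primed cells. The log2 fold change was 0.52 ± 0.06 (adjusted p = 4.92e-11 by edgeR), beside 2.46 against Mpo-matched cells (2.39 without the 6 pools). Without the pool as a block, the difference of 0.50 did not pass (adjusted p = 0.29 by edgeR). Both sets were low in the 6 pools named above, where Ly6c2 had 371, 859 and 2053 CPM in monocyte-primed cells, against 319, 494 and 700 CPM in comparison cells. In the other 10 pools it had 2636, 3063 and 4124 CPM in monocyte-primed cells, against 1996, 2150 and 2691 CPM in comparison cells. Without the 6 pools the log2 fold change was 0.45 and still passed. Ly6c2 reads can be shared with near-identical copies of its family, so its level is uncertain.

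The promoters of Elane and Prtn3, of the granule side of the comparisons, and of Ly6c2 and Ctss, of the monocyte side, are shown as examples that carry a match. Most genes of both lists had no match to either sequence marked below. Of the genes in the lists, 10 of the primary-granule list and 26 of the monocyte effector list had an entry in the RefSeq promoter table. The 120 bases before each RefSeq start are printed on the gene's strand (build GRCm38.p6, not the build of the counts), with capitals marking a match to GAGGAAGT, a PU.1-type sequence, in Elane, Prtn3 and Ly6c2, and to an interferon-response-type sequence bound by IRF factors, which is GAAA followed after 2 further bases by GAAA, in Ctss.
Elane, chr10:79886192-79886311, plus strand: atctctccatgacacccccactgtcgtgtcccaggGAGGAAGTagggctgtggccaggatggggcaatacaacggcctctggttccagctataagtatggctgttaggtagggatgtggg
Prtn3, chr10:79879547-79879666, plus strand: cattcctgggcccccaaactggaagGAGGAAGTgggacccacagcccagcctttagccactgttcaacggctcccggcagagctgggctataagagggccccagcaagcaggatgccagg
Ly6c2, chr15:75111972-75112091, minus strand: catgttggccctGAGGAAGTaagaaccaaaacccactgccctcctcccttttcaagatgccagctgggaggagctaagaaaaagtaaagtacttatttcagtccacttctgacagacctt
Ctss, chr3:95526666-95526785, plus strand: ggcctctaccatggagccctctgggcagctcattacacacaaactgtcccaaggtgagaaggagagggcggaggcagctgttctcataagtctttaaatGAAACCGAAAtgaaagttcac

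The PU.1-type match begins 85 bases before the start in Elane, 95 in Prtn3 and 108 in Ly6c2, and the interferon-response-type match begins 21 bases before the start in Ctss. Both strands of the 250 bases before each start were searched. List counts are by gene and stand beside the share of gene symbols. GAGGAAGT was found in 2.44% of 32851 promoters of the table and in 2.79% of 27025 gene symbols. It was found in 3 of 10 genes of the primary-granule list and in 2 of 26 monocyte effector genes. The interferon-response-type sequence was found in 2.98% of promoters and 3.46% of symbols. It was found in 1 of 10 genes of the primary-granule list and in 2 of 26 monocyte effector genes. TTGCNNAA, a C/EBP-type sequence, was found in 9.56% of promoters and 10.8% of symbols. It was found in 2 of 10 genes of the primary-granule list and in 4 of 26 monocyte effector genes. The 3 sequences do not overlap in the printed windows, and these matches describe letters only.

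Receptor genes split between the sets. Of 17 listed receptors of granulocyte-monocyte cells, 7 were tested in the granule-matched sets outside the rule, and 3 were higher and 2 lower. Of all genes tested there, 10.3% were higher and 11.2% lower. Cd34, the progenitor antigen, was higher at 152, 344 and 427 CPM by pool in monocyte-primed cells, against 108, 164.5 and 263 CPM in comparison cells (0.85 ± 0.12, adjusted p = 2.97e-08 by edgeR). The ranges overlapped, and 14 of 16 pools were higher. In batch SB17 alone the difference was 0.49 and did not pass (adjusted p = 0.254 by edgeR), and in batch SB19 it was 0.97. Without the 6 pools named above it was 0.67. Cxcr4, the receptor that retains cells in marrow, and Ifngr2, the second chain of the interferon-gamma receptor, were higher at 0.71 and 0.63. Ifngr1, the ligand-binding chain, was lower, at 244 CPM in monocyte-primed cells and 571 CPM in comparison cells (-1.29). Csf2ra and Csf2rb, the chains of the GM-CSF receptor, did not pass at -0.27 and 0.37, although both were higher against all other cells at 1.41 and 1.97. Fcgr3, which encodes an Fc-gamma receptor, had 82.3, 265 and 407 CPM in monocyte-primed cells, against 172, 459 and 745 CPM in comparison cells (-0.90 ± 0.10, adjusted p = 1.2e-11 by edgeR). Its ranges overlapped, and 2 of 16 pools were higher in monocyte-primed cells. Without the 6 pools the difference was -1.01. Fcgr2b, which encodes another Fc-gamma receptor, fell below the filter, at 98.3 CPM in monocyte-primed cells and 110 CPM in comparison cells.

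Surface protein was recorded during sorting for 411 of the 413 cells and was not used by the rule. The FcgR antibody intensity, as the median cell of each pool, had a lowest value of 828.5, a median of 1618 and a highest of 2522 in monocyte-primed cells, against 75, 129.5 and 204.5 in the other unsorted cells. No pools overlapped. The mean of pool medians was 1664 ± 542 in monocyte-primed cells and 133 ± 33.4 in the other cells (SD, n = 16), higher in 16 of 16 pools (exact paired permutation test, two-sided, adjusted p = 3.05e-05, the smallest it can give). CD34 intensity had 248, 289 and 491 in monocyte-primed cells, against 55.0, 67.0 and 207 in the other cells, with no overlap and the same p by that exact test. Against Mpo-matched cells the differences were 1412 for FcgR and 208 for CD34, each in 16 of 16 pools. These 4 tests were adjusted together.

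Granule-matched comparison cells were close to monocyte-primed cells on both axes, but lower in most pools. FcgR averaged 1721 ± 532 in monocyte-primed cells and 1375 ± 456 in granule-matched comparison cells (SD, n = 16 pool medians), higher in 13 of 16 pools (exact paired permutation test, adjusted p = 0.00174). CD34 averaged 324 ± 84.7 in monocyte-primed cells and 244 ± 67.3 in comparison cells, higher in 16 of 16 pools (exact paired permutation test, adjusted p = 6.1e-05). Pool ranges overlapped for both antibodies. Within batch SB17 the differences were 139 for FcgR and 83.3 for CD34 over 4 pools, which allow no p below 0.125, and within batch SB19 they were 414 for FcgR and 79.0 for CD34 over 12 pools. In the granule-matched sets surface FcgR was thus higher where Fcgr3 mRNA was lower, while surface CD34 and Cd34 mRNA were both higher. Against all other and Mpo-matched cells, Fcgr3 mRNA was higher too, with log2 fold changes of 1.26 and 1.00. Without the 6 pools low in Ly6c2 these were 1.21 and 0.92. With Mpo at 10 or more, the Mpo-matched difference was 0.08 and did not pass. Intensities differ in level between pools, so the tests compare sets within a pool. With each pool's median over all unsorted cells as the dividing line, 379 of 411 monocyte-primed cells (92.2%) were high in both antibodies, against 84.3% of granule-matched comparison cells, 40.4% of Mpo-matched cells and 34.9% of all other cells. Of the 411 cells 0 were low in both, which allows a share of up to 0.730%. The remaining cells were 26 with high CD34 and low FcgR and 6 with high FcgR and low CD34.

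**Figure D3:**
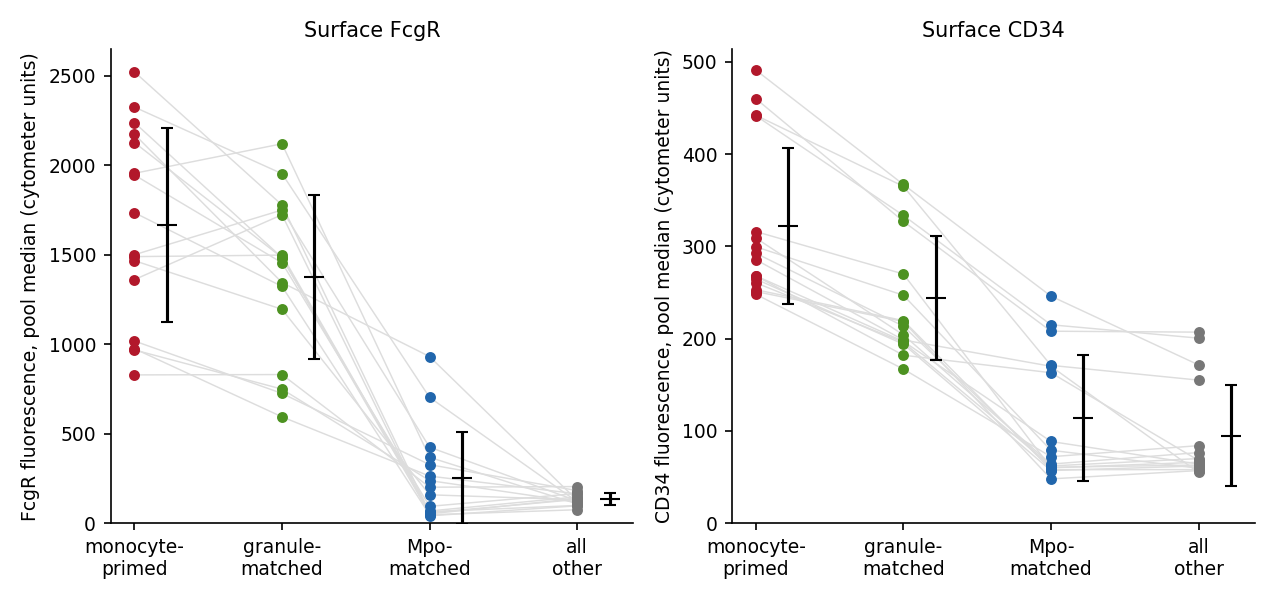
Median surface intensity per pool of FcgR and CD34 (y axes, linear, in cytometer units) in monocyte-primed, granule-matched, Mpo-matched and all other unsorted cells; grey lines join sets of 1 pool and black bars give the mean ± SD of 16 pool medians. FcgR stands at 1664 in all monocyte-primed cells and 133 in all other cells, and the granule-matched comparison cells at 1375, beside 1721 in monocyte-primed cells above the same granule floor.

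Further lists were counted in the same sets and are read beside the shares of all tested genes. Those were 23.7% higher and 25.4% lower against all other cells, and 10.3% higher and 11.2% lower in the granule-matched sets. Of 9 lysosome genes tested against all other cells, 8 were higher in monocyte-primed cells. In the granule-matched sets 5 of 7 were higher, among them Lamp1 (836 CPM in monocyte-primed cells and 467 CPM in comparison cells), and Ctsd and Grn were lower at -0.51 and -0.49. All 4 tested genes of the NADPH oxidase, the enzyme of the oxidative burst, were higher against all other cells, while in the granule-matched sets Rac2 was lower at -0.22 and the other genes did not pass, with log2 differences between -0.20 and 0.16. Both tested genes of the dendritic list outside the rule were higher, Cst3 at 1623 CPM in monocyte-primed cells and 1129 CPM in comparison cells (0.46) and the antigen-loading gene H2-DMa at 237 CPM in monocyte-primed cells and 143 CPM in comparison cells (0.68). Of 12 S-phase genes 1 was higher, and of 10 G2/M genes 3 were higher, Top2a, Birc5 and Plk1. Against all other cells, 6 of 15 S-phase genes and 6 of 14 G2/M genes were lower and 1 G2/M gene was higher. Of 19 ribosomal protein genes 4 were lower in the granule-matched sets, with a median log2 fold change of -0.05. Both tested erythroid genes, Car1 and Car2, were lower at -0.38 and -0.60.

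Some comparison pools held transcripts of further lineages. The summed erythroid list ranged over 535 to 1258 CPM by pool in granule-matched monocyte-primed cells, against 710 to 5335 CPM in comparison cells. The summed eosinophil list, with UMIs for 3 of its 7 genes (Prg2, Prg3 and Epx), ranged over 0 to 50.9 CPM in monocyte-primed cells, against 0 to 2927 CPM in comparison cells. The part of these cells in the results was not tested.

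**Figure D4:**
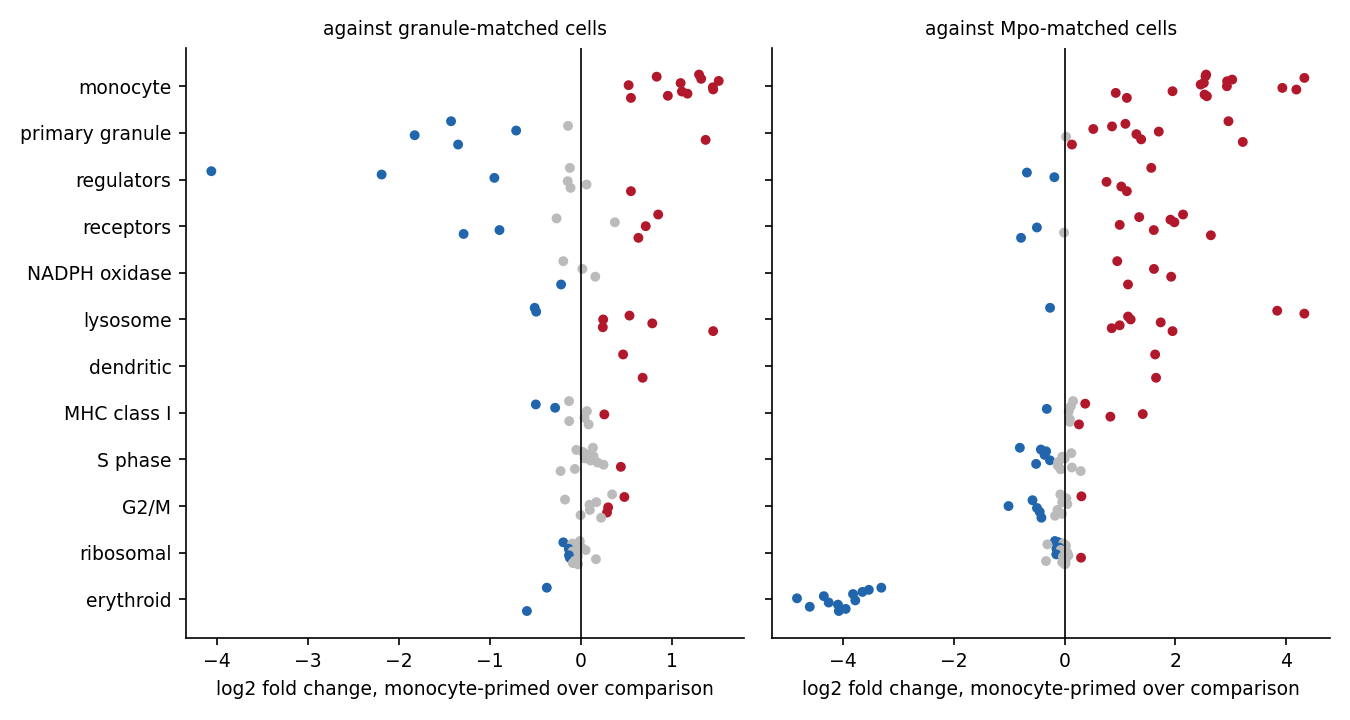
Log2 fold change (x axis) of each tested gene of the gene lists named on the y axis, granule-matched comparison left and Mpo-matched comparison right; positive values are higher in monocyte-primed cells, red genes were called higher, blue lower and grey neither. All 12 tested monocyte effector genes lie above 0 in the granule-matched sets, with a median of 1.14. Of 6 tested genes of the primary-granule list, which is wider than azurophil granule proteins, 4 were called lower.

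Within the monocyte-primed set, granule transcripts were lower and Ly6c2 was higher in cells with more monocyte UMIs. The bands share the genes of the rule and differ in depth, so these pooled values have no test. Elane had 6921 CPM in the 209 cells with a monocyte sum of 4 to 7, 5880 CPM in the 123 cells with 8 to 11, and 5209 CPM in the 81 cells with 12 or more. Ly6c2 had 1849, 2420 and 2841 CPM over these bands in the same order, and Fcer1g had 375, 476 and 530 CPM. Cebpe had 24, 4 and 1 UMIs, which are 33.9, 8.47 and 2.37 CPM. Cebpa stood at 267, 258 and 237 CPM and Gfi1 at 52.2, 40.2 and 44.9 CPM, with no single direction for Gfi1. Pools did not enter the bands evenly, as cells with a sum of 8 or more were 15.8% to 73.1% of monocyte-primed cells by pool. With pools weighted equally, Elane averaged 5832 ± 2134 CPM in cells with a sum of 8 or more and 6813 ± 1438 CPM in cells below (SD, n = 16 pools), lower in 14 of 16 pools. Ly6c2 averaged 2475 ± 1155 CPM in cells with a sum of 8 or more and 1999 ± 1116 CPM in cells below, higher in 12 of 16 pools, and Fcer1g was higher in 14 of 16. Cebpe was lower in 11 pools and higher in 2, and Cebpa was lower in 9 and higher in 7. Surface intensity did not pass the test between the upper and the lower part of the set. FcgR averaged 1822 ± 689 in cells with a sum of 8 or more and 1615 ± 589 in cells below (SD of 16 pool medians, exact paired permutation test, adjusted p = 0.177), and CD34 averaged 331 ± 99.0 in cells with a sum of 8 or more and 311 ± 65.2 in cells below (adjusted p = 0.177 by the same exact test).

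The share of monocyte-primed cells among unsorted cells averaged 15.2% ± 2.82 (SD, n = 16 pools) and ranged from 11.2% to 20.5%. It was 15.1% on average in the 4 pools of sequencing batch SB17 and 15.3% in the 12 pools of batch SB19. The same rule gave other shares elsewhere. In sorted gates, Csf1r, Irf8-GFP and MHC class II enter the gate and the rule alike, and their part in the shares was not tested. All 3 gates also took CD34+ FcgR(low) cells, whereas 92.2% of unsorted monocyte-primed cells were high in both antibodies. The part of this surface selection in the shares was not tested either.

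The Cebpa knockout was read first at its targeted gene. Cebpa had 3 UMIs over 847 KO cells, at 0 to 4.00 CPM by pool with a median of 0, against 195 UMIs over 558 control cells, at 73.8 to 152 CPM by pool. The ranges did not overlap. The labels leave the deleted stretch of the gene unstated, and a 3' tag outside it would check nothing. Of 847 KO cells 0 met the rule, which allows a share of up to 0.354%, against 43 of 558 control cells (7.71%). By pool the share was 0% in all 8 KO pools and 7.35% ± 2.62 in the 4 control pools, 9.15% and 9.88% in control replicates 3 and 4 with the Cre in their strain label and 4.27% and 6.09% in replicates 5 and 6 without it. The difference of -7.35 percentage points had an adjusted p of 0.00808 (exact permutation test over 495 splits of the pools, two-sided), within 1 sequencing batch. With all pools grouped by GEO label it was -4.08 points and did not pass (exact permutation p = 0.471). The 8 KO pools came from 4 plates and the 4 control pools from 2 plates, and the test counts pools of 1 plate as separate units. In KO cells 0 reached a monocyte sum of 4, and 45 reached 5 Mpo UMIs. Mpo had 56.0 to 527 CPM by pool in KO cells, against 3666 to 6491 CPM in control cells. Depth also differed, with a median of 1887 UMIs in KO cells and 2895 in control cells, and so did the wells kept, 55.7% and 73.4%. When cells were thinned to 2000 UMIs, 0 of 404 KO cells met the rule, against 22 of 382 control cells (5.76%).

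Sorted gates differed in both directions. Of 380 Flt3+ Csf1r+ cells 234 met the rule (61.6%, with pools at 57.4% and 65.8%), against 15.1% of unsorted cells, a difference of 46.3 percentage points between pool means (exact permutation test, adjusted p = 0.0131, the smallest its 153 splits can give before adjustment). Of 336 CD41+ cells 1 met it (0.298%, a difference of -14.9 points with the same exact p). Within batch SB17, which holds both, the CD41+ pools had 0% and 0.592%, against 11.9% to 17.1% in 4 unsorted pools. Of 743 Irf8-GFP+ MHCII+ cells 45 met it (6.06%, -9.20 points, adjusted p = 0.00165 by the exact permutation test). In that gate 43.7% of cells reached a monocyte sum of 4, and 79.0% failed the class II condition. Thinning to 2000 UMIs lowered the class II counts as well, and 10.6% of the remaining cells of that gate met the rule, against 12.2% of unsorted cells, a difference that did not pass (-1.79 points between pool means, exact p = 0.325). The Flt3+ Csf1r+ and the Irf8-GFP+ MHCII+ gates each came from another sequencing batch than the unsorted cells, so gate and batch cannot be told apart there. The 4 comparisons of shares were adjusted together. Their tests count pools of 1 plate as separate units. The CD41+ and the Flt3+ Csf1r+ pools each came from 1 plate, and the Irf8-GFP+ MHCII+ pools from 2 plates. With all pools grouped by GEO label none of the 3 gates passed. The differences were 7.34 points for Flt3+ Csf1r+ (exact permutation p = 0.415) and 7.12 for Irf8-GFP+ MHCII+ (p = 0.404), the latter with its direction turned. CD41+ stayed at -14.9 points, because its pools are the same under both groupings. Its exact permutation p of 0.0131 was unchanged, and only the adjustment with the other comparisons moved it to 0.0523.

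Cells that met the rule were not alike between groups. Summed over the cells of each group, Elane had 924 CPM in the 234 cells of the Flt3+ Csf1r+ gate and 376 CPM in the 45 cells of the Irf8-GFP+ MHCII+ gate, against 6163 CPM in the 413 unsorted cells. Ly6c2 had 298 and 154 CPM in these gates, against 2279 CPM in unsorted cells. By pool it ranged over 208 to 371 CPM and 0 to 193 CPM in the gates, against 356 to 3978 CPM in unsorted cells. The Flt3+ Csf1r+ and the unsorted ranges thus overlapped. Without the 6 unsorted pools low in Ly6c2, the unsorted range was 2600 to 3978 CPM. Flt3, a receptor of early progenitors used in the first of these sorts, had 377 and 395 CPM in the gates, against 49.3 CPM in unsorted cells, and Cd34 had 803 and 746 CPM in the gates, against 337 CPM in unsorted cells. Cells of the Cebpa control that met the rule had 6320 CPM of Elane and 1705 CPM of Ly6c2, the latter at 125 to 2565 CPM by pool. These sums have 1 mouse identifier per group and no test.

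**Figure D5:**
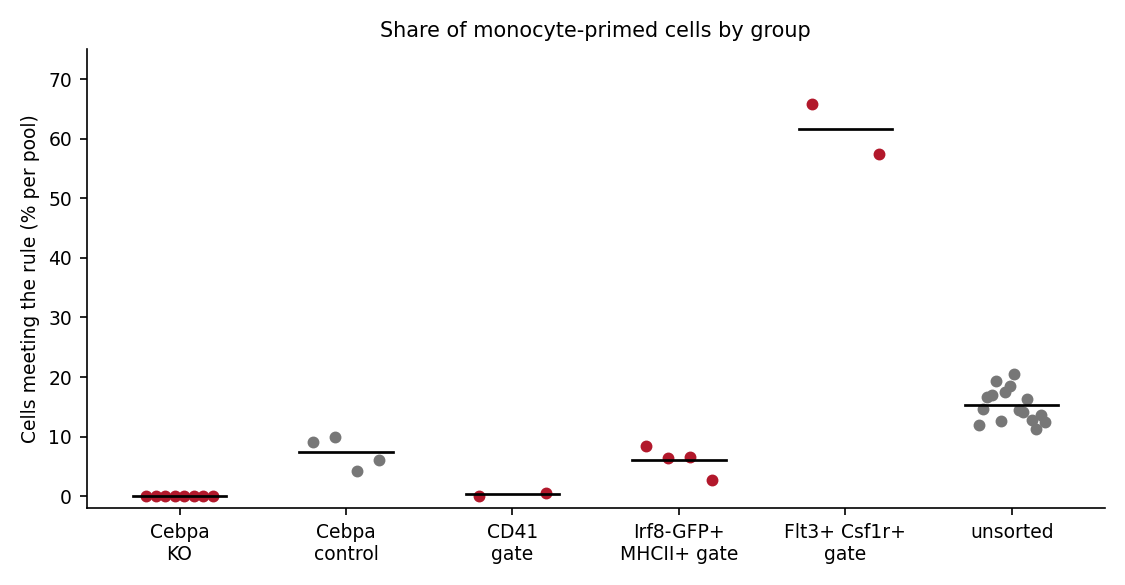
Percent of cells meeting the rule in each pool (y axis) for Cebpa KO, Cebpa control, CD41+, Irf8-GFP+ MHCII+, Flt3+ Csf1r+ and unsorted cells; each point is 1 pool and the line is the mean of pools. All 8 KO pools lie at 0%, the control pools between 4.27% and 9.88%, the Flt3+ Csf1r+ pools at 57.4% and 65.8%, and the unsorted pools between 11.2% and 20.5%.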

How the data were processed

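MARS-seq was run on single cells in 54 amplification pools of 192 wells. The authors deposited a table of UMI counts (27297 gene rows, of which 2109 join several symbols and are uncertain) and a well table with the FcgR and CD34 fluorescence intensity of each sorted cell on a linear scale. The submitters' processing notes name bcl2fastq 2.15.0.4 and genome build mm9. How reads became UMI counts is not given in the sources used. The members and lists were chosen with earlier results of these data known.

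Counts of each cell set were summed per pool (5 or more cells) and tested with edgeR 4.0.16 in R 4.3.3: TMM scaling, its filter on low counts, quasi-likelihood test with the pool as a block because both sets of a pool share plate and amplification, Benjamini-Hochberg adjusted p under 0.05. CPM values are without TMM scaling. DESeq2 1.42.0 was an alternative. The scripts were tested on simulated data. Surface medians were compared by exact sign-flip permutation within pools and shares by exact permutation over pools (Python 3.11.15, SciPy 1.17.1). A limit for a count of 0 uses 3 counts and covers counting error only. No pair of unsorted pools agreed within sampling noise (lowest chi-square per degree of freedom 1.28 over 120 pairs).

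Genes were named by rule among called single-symbol rows with at least 100 CPM in the higher set and 30 UMIs: the 12 largest differences each way against Mpo-matched and granule-matched cells, 10 each way against all others, and the 4 members of each list with most UMIs. Other genes of the lists were named after their values were seen.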

Additional observations from a re-analysis of the deposited data

Results flagged for a closer look

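Pools whose group label and whose entry in the authors' table differ were used only where pools were grouped by label or by table as alternatives, and 5 sets of them held cells that met the monocyte-primed rule above the level of the Cebpa control. Of cells labelled Irf8-GFP+ MHCII+ and called Flt3+ Csf1r+ in the authors' table, 209 of 380 met the rule (55.0%). Of cells labelled Cebpa KO and called Flt3+ Csf1r+ there, 110 of 372 met it (29.6%). Of cells labelled Cebpa KO and called Cebpe control there, 44 of 250 met it (17.6%). Of cells labelled Cebpa control and called Cebpe KO there, 64 of 302 met it (21.2%). Of cells labelled Cebpe control and called Cebpe KO there, 96 of 257 met it (37.4%). These shares come from 2 pools each and were not compared between groups.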

How the results depend on the processing

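In 16 pools, surface differences from other, Mpo-matched and granule-matched cells passed, and those between the upper and lower part did not. In batch SB17 alone (4 pools, smallest p 0.125) the FcgR differences were 1378 against other cells, 1132 against Mpo-matched and 139 against granule-matched cells, the CD34 differences 250, 208 and 83.3, and the FcgR difference between the upper and lower part turned to -77.4. The unsorted share was 12.4% at 2000 thinned UMIs and 18.6% with a monocyte sum of 3. The Irf8-GFP+ MHCII+ difference was -1.79 points when thinned. With all pools grouped by GEO label, the differences were -4.08 points for KO (p = 0.471), 7.34 for Flt3+ Csf1r+ (p = 0.415) and 7.12 for Irf8-GFP+ MHCII+ (p = 0.404) by the exact permutation test. The CD41+ comparison kept its pools and its -14.9 points. Only the adjustment moved its exact permutation p from 0.0131 to 0.0523. Grouping by the authors' table kept all 4 calls.

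Counts of genes higher and lower changed as follows, where fewer cells, UMIs or pools leave fewer genes tested. Against other cells they were 253 and 210 when thinned to 1000 UMIs, 516 and 409 in batch SB17, and 2681 lower without the filter. Against Mpo-matched cells they were 1387 and 2299 without the filter, 142 and 133 thinned, 461 and 452 with Mpo at 10 or more, and 397 and 341 in SB17. Against granule-matched cells they were 396 and 349 without the filter, 51 and 39 thinned, 60 and 70 in SB17, and 113 and 138 by DESeq2. Without the replicate block they were 992 and 1037 against other, 780 and 767 against Mpo-matched, and 123 and 156 against granule-matched cells.

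Of named genes, Srgn turned to -0.052 against other cells and -0.37 against Mpo-matched cells when thinned, -0.56 with Mpo at 10 or more and -0.061 in SB17. Muc13 turned to 0.11 at 2000 or more UMIs, H2-K1 to -0.24 thinned, Elane to -0.10 and Cd27 to -0.29 with Mpo at 10 or more, Cd27 to -0.46 in SB17, and Car1 in the granule-matched sets to 0.074 in SB17 and 0.070 without the 6 Ly6c2-low pools. The causes were not tested.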

Other observations

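Class I antigen presentation genes passed the test in both directions. Against all other unsorted cells, the immunoproteasome gene Psmb8 averaged 1180 CPM in monocyte-primed cells and 512 CPM in the other cells (log2 fold change 1.28), and Psmb9 averaged 307 CPM in monocyte-primed cells and 200 CPM in the other cells (0.69). Of 10 tested genes of this list 3 were higher and 1 was lower, the class I gene H2-Q7 at -0.37, a share below the 49.1% of all tested genes that passed. In the granule-matched sets Psmb8 was higher at 0.26, and H2-K1 and H2-Q7 were lower at -0.50 and -0.29. Class I genes share reads with near-identical copies and are uncertain.

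Interferon-induced genes did not share a direction. Ifitm3, a membrane protein that restricts viruses, averaged 332 CPM in monocyte-primed cells and 132 CPM in granule-matched comparison cells (1.27), and Bst2, tetherin, was higher at 0.31, while Ifitm2 did not pass at -0.04. Against all other cells Irf7 was lower at -2.14. Among early progenitor genes, Gata2 and Apoe were lower against all other cells at -2.59 and -2.96, and Sox4 and Cd27 were higher at 0.80 and 0.44.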
